A study of Mus musculus with 20 samples.

Results

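Lysophosphatidic acid (LPA) is a signalling lipid that acts outside the cell. Autotaxin, the secreted enzyme encoded by Enpp2, makes it by removing the choline headgroup of lysophosphatidylcholine. LPA binds G protein-coupled receptors encoded by the Lpar genes, which couple to Gi, Gq and G12/13 proteins and from there to calcium and MAP kinase signalling. Lipid phosphate phosphatases at the cell surface, among them the products of Plpp1 and Plpp3, end the signal by removing its phosphate. LPA is known from ovarian cancer, where it accumulates in ascites.

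The genes described here are 8 members of this pathway, listed by name for their roles: Enpp2, the receptors Lpar1, Lpar2, Lpar3, Lpar4 and Lpar6, and the phosphatases Plpp1 and Plpp3. Of these, 6 have a row in the deposited count table of 14299 genes. Lpar3 and Lpar4 have none and were not analysed here. The authors kept genes detected in at least 10 cells. The members were chosen with earlier results of these data known. The authors had already named Enpp2 among the top genes correlated with the estradiol branch of their cell ordering. Its call below is therefore not an independent finding.

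Ovarian surface epithelial (OSE) cells, the single layer that covers the ovary, were isolated from mice and grown as primary cultures. The strain, age and genotype of the donor animals of these cultures are not given in the sources used here. After 48 hours in hormone-free medium with charcoal-stripped serum, cells were kept for 15 days either with 100 nM estradiol (E2) or with the same volume of ethanol (0.0002% in the end), which is the control. Each condition went as 1 cell suspension into 1 side of a microfluidic chip, whose 20 columns each gave 1 library of single cells. Libraries are therefore the samples, and differences between cultures were not measured. The p-values cover the spread between chip columns, and E2 cannot be told apart from culture or chip side.

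The authors split the cells into 2 clusters by their expression. Cluster 1 held 126 control and 42 E2 cells, and the other cluster, called responsive here after the authors' reading of it, held 203 control and 218 E2 cells. The control libraries are numbered 1 to 10 and the E2 libraries 11 to 20 by chip column, and the count table held no cells of column 13. Library totals ranged from 3867791 to 5078340 reads for control and from 2693258 to 4037847 for E2. The median responsive cell had 143233 reads in control and 117809 with E2, and the median cluster 1 cell had 112126 and 87632. For levels, reads were summed over the cells of a cluster in each library with at least 3 such cells, which gave 10 control and 9 E2 sums for responsive cells and 10 and 7 for cluster 1. They are given as CPM, which are reads scaled to the same total in every sum. No cell name was shared between libraries and 0 pairs of cells had identical counts.

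Of 12 OSE markers listed, 10 were in the table. All 10 had reads in each of the 4 groups, and their summed level was 4159 to 6984 CPM over all sums. The median was 6051 CPM in responsive control, 5499 in responsive E2, 5776 in cluster 1 control and 4693 in cluster 1 E2 sums. Every gene of the stromal, granulosa and endothelial lists in the table also had reads in each group. The presence of reads therefore does not set OSE apart. Single OSE markers differed widely, and in cluster 1 control sums Upk3b averaged 1880 CPM, Krt19 25.5 and Lgr5 1.22 CPM. The 6 stromal genes in the table did not separate the clusters in 1 direction. In control, the collagen gene Col1a2 averaged 1874 CPM in cluster 1 and 14.9 in responsive sums, and Dcn 1393 and 1265 CPM. Col3a1 averaged 270.2 CPM in cluster 1 and 570 in responsive sums, Col1a1 77.8 and 197, Thy1 9.34 and 171, and Pdgfra 7.88 and 8.57 CPM. Of the 5 leukocyte genes, Ptprc, Cd3e and Itgam averaged at most 3.19 CPM in any group, Csf1r 12.9 to 20.9 CPM and Cd68 17.2 to 68.1 CPM. The summed theca list had a median of 179 CPM in cluster 1 and 42.8 in responsive control sums, and 221 and 43.0 CPM with E2.

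Enpp2 was the 1 member whose difference between conditions passed the test. It was 11.4 times as high in responsive E2 cells as in responsive control cells by the ratio of mean CPM, and it was found in a larger share of the cells. The receptors Lpar1, Lpar2 and Lpar6 and the phosphatases Plpp1 and Plpp3 did not pass the test between conditions. In the 17 cluster 1 sums, Enpp2 stayed under 10 CPM except in 1 control library, in which a single cell held nearly all of its reads.

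Enpp2 (ENSMUSG00000022425) lies on the minus strand at chr15:54838901-54952892 of GRCm38, and its 5′ end overlaps a noncoding transcript on the opposite strand, Gm26684, which has no row in the count table. In the 10 responsive control sums its level was 0.404 CPM at the lowest, 19.5 at the median and 129 at the highest (40.3 ± 48.4 CPM, SD). In the 9 responsive E2 sums it was 126 at the lowest, 407 at the median and 1066 at the highest (460.2 ± 289 CPM, SD). The E2 libraries were high as a group, and 8 of 9 lay above every control library. The groups met only where E2 library 18, at 126 CPM, fell just under control library 10, at 129 CPM. Control libraries 2, 3 and 10, at 89.3, 107 and 129 CPM, were well above the other control libraries, the next of which was library 6 at 22.7 CPM.

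edgeR's quasi-likelihood test, run on all genes of the responsive sums, gave a log2 fold change of 3.50 ± 0.61 (SE) for Enpp2 with a Benjamini-Hochberg adjusted p of 0.00107. Calls needed both an adjusted p under 0.05 and a log2 fold change of over 0.5 in size. By this rule 1.37% of the 10265 genes tested were called in either direction, 87 higher and 54 lower with E2, and higher calls made up 0.848% of the genes. Enpp2 was the 1 member called of the 5 tested, and Lpar1 fell below the filter on low counts. The median log2 fold change over all genes tested was 0.02.

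**Figure D1:**
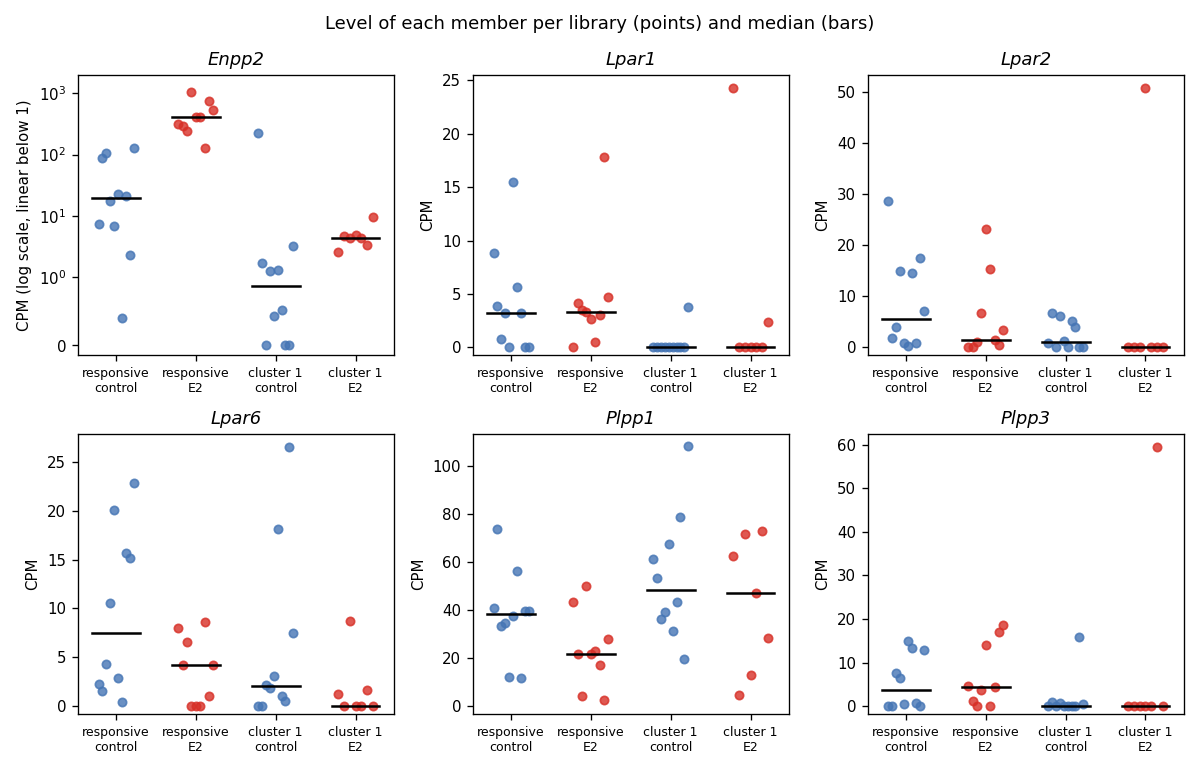
Level of each member (CPM, vertical axis) in the summed cells of each library, for responsive and cluster 1 cells of control (blue) and E2 (red) cultures; each point is 1 library, black bars are medians, and the Enpp2 axis is logarithmic above 1 CPM. Enpp2 in responsive cells lies at 126 to 1066 CPM with E2 and at 0.404 to 129 CPM in control, and the groups of the other members overlap in both clusters.

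The rise was seen in how many cells held Enpp2 reads as well as in how many reads they held. Over all 589 cells, 188 had an Enpp2 read (31.9%, exact 95% binomial interval 28.2 to 35.9%). In responsive cells it was 34 of 203 control cells (16.7%, 11.9 to 22.6%) and 126 of 218 E2 cells (57.8%, 50.9 to 64.4%). These intervals cover counting error only, since reads were counted without molecular identifiers and cells of 1 suspension are not separate cultures.

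Control cells were sequenced more deeply, so shares were also set to 1 depth of 20000 reads per cell. At that depth the share of responsive cells with an Enpp2 read was 1.22% at the lowest, 9.29% at the median and 23.1% at the highest of 10 control libraries (10.9% ± 6.79, SD). In the 9 E2 libraries it was 37.9% at the lowest, 47.2% at the median and 52.1% at the highest (46.7% ± 4.67, SD). The groups did not overlap. An exact two-sided permutation test over libraries gave p = 2.17e-05, the smallest that 10 libraries against 9 allow, and 0.00026 after adjustment over the 12 tests of 6 members in 2 clusters. For comparison, 0.0909% of all 14299 genes had a share that was higher in every E2 library than in every control library. At full depth the shares were 16.7% ± 7.01 (SD, n = 10) in control and 58.6% ± 8.42 (SD, n = 9) with E2, with the same exact p.

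**Figure D2:**
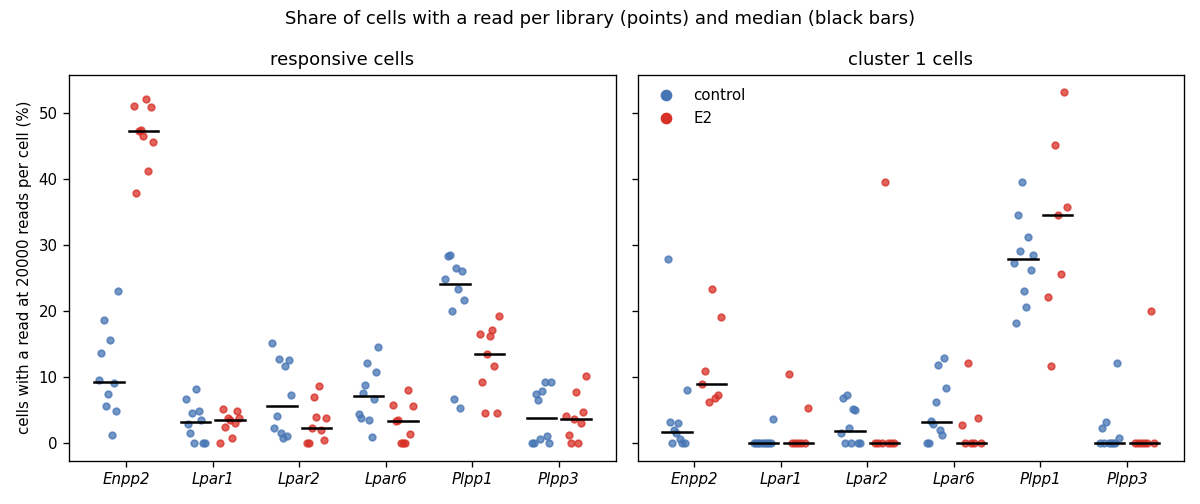
Share of cells with at least 1 read of each member (percent, vertical axis) after each cell was brought to 20000 reads, for responsive cells (left) and cluster 1 cells (right); points are libraries, control in blue and E2 in red, and black bars are medians. For Enpp2 in responsive cells, the E2 libraries (37.9 to 52.1%) and the control libraries (1.22 to 23.1%) are apart, and the points of every other pair overlap.

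Among the cells that had a read, Enpp2 varied over 3 orders of magnitude. The 126 E2 responsive cells with a read had a median of 29.5 reads and 263 CPM of their own reads, with a highest value of 5234 CPM. The 34 control responsive cells with a read had a median of 15.5 reads and 85.1 CPM, with a highest value of 1831 CPM. More than 100 CPM was reached by 87 of 218 E2 cells (39.9%) and 15 of 203 control cells (7.39%). The 10 cells with the most reads held 46.4% of the 11204 Enpp2 reads in E2 responsive cells and 84.5% of the 1189 reads in control responsive cells. In single E2 libraries the cell with the most reads held 20.8 to 38.2% of the reads, and in control libraries 37.5 to 100.0%. Leaving out that cell from every library, an alternative chosen after seeing these shares, removed a larger part of the reads in control, and the log2 fold change was then 4.66 ± 0.66 (SE, adjusted p = 8.0e-05 by edgeR).

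Among E2 responsive cells, those with and without an Enpp2 read were sequenced to similar depth, with medians of 119723 and 112696 reads. They also lay close on the deposited pseudotime score, with medians of 57.5 and 55.6. Cells without a read were 92 of 218, so the level of the E2 sums came from part of the cells. In a sum, a larger share of expressing cells and more RNA in each of them cannot be told apart, which is why both are given.

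**Figure D3:**
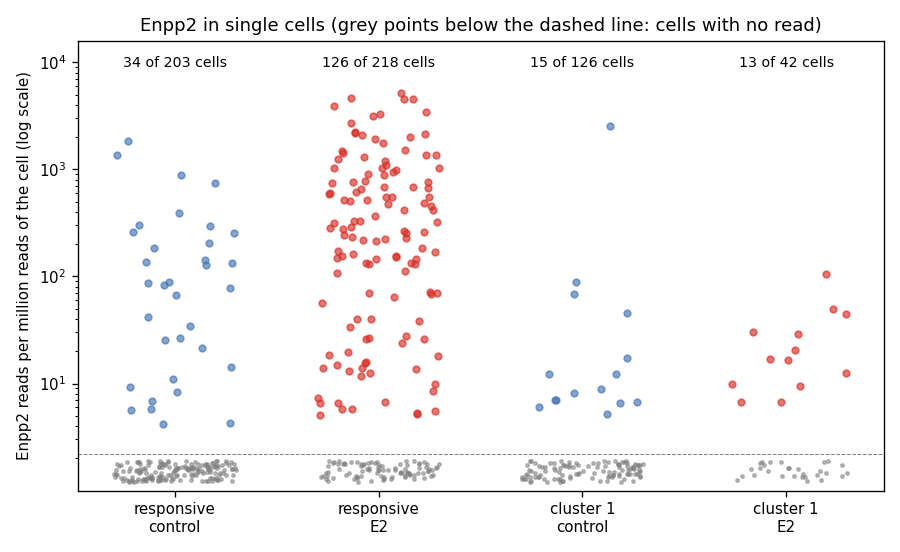
Enpp2 in single cells as CPM of the cell's own reads (logarithmic vertical axis) in the 4 groups; each coloured point is 1 cell with a read, and grey points under the dashed line are cells with none, spread only to be seen. Cells above 100 CPM are 87 of 218 in responsive E2 and 15 of 203 in responsive control, and 1 in each of the cluster 1 groups.

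Enpp2 reads were found in 15 of the 126 control cells of cluster 1 (11.9%, with an interval of 6.82 to 18.9%) and in 13 of its 42 E2 cells (31.0%, 17.6 to 47.1%). All 13 E2 cells held 1 to 3 reads. In control, 1 cell of library 1 held 251 of the 280 reads, and the other 125 cells held 29 reads together. That cell had 2571 CPM of Enpp2 and was in cluster 1 also in the authors' split into 3 clusters, but other values of it lay nearer to responsive cells. Its Krt19 level was 584 CPM, against means of 25.5 CPM in cluster 1 and 414 in responsive control sums, and its Col1a2 level was 154 CPM, against 1874 and 14.9. Its pseudotime score was 34.9, against medians of 0.56 in cluster 1 and 44.8 in responsive control cells. The level per library was 2.56 CPM at the lowest, 4.35 at the median and 9.51 at the highest of 7 E2 sums. E2 libraries 12 and 14, with 2 and 1 cluster 1 cells, gave no sum, and the 2 cells of library 12 held 4 Enpp2 reads, which is 29.9 CPM of their reads. Library 1 stood at 224 CPM among the control sums, and the other 9 ranged from 0 to 3.20 CPM, with 3 of them at 0.

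Enpp2 was below the filter on low counts in the fit of cluster 1 alone, so no fold change was tested there. The share of cells with a read at 20000 reads per cell was 11.8% ± 6.74 (SD, n = 7) with E2 and 4.62% ± 8.53 (SD, n = 10) in control. The exact permutation test gave p = 0.0908, adjusted to 0.218, and at full depth 30.0% against 12.4% gave p = 0.0280, adjusted to 0.112. The shares therefore did not pass the test after adjustment.

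Responsive and cluster 1 cells of a library were prepared together, so the level of Enpp2 in cluster 1 is set beside that of other genes low there. These genes were chosen by their control level, so their control range follows from the choice. It can also hold reads of the cluster 1 cells themselves, and so does not measure stray reads. The 20 genes above 100 CPM in responsive control sums with the lowest relative level in cluster 1 had a median of 5.95% of their responsive level in control cluster 1 sums (3.97 to 7.99%) and 2.22% in E2 sums, where they ranged from 0.352% for Fxyd1 to 86.1% for Abcb1b. Enpp2 in E2 cluster 1 sums was at 1.04% of its responsive level. The E2 range is wide because of Abcb1b, with Angptl7 next at 19.7%, so a value within it says little. In control it was at 57.6%, a value that rests on the single cell of library 1. Whether the cluster 1 reads of Enpp2 come from those cells or from responsive cells was not tested.

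Whether E2 acted differently on Enpp2 in the clusters was tested as an interaction in edgeR over the 36 sums. The log2 difference between the fold changes was -5.82 ± 1.52 (SE) with an adjusted p of 0.0943, which did not pass. Without control library 1 it was -1.10 with an adjusted p of 0.868, while DESeq2 (adjusted p = 0.0300) and cells thinned to 20000 reads (adjusted p = 0.0255) called it. By edgeR 0.184% of 11398 genes were called in this test, and none of the 5 members tested, of which 1, Enpp2, had an unadjusted p below 0.05. limma-voom called none of the 5 either. The change of Enpp2 with E2 was thus not shown to differ between the clusters.

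Because the clusters were built on the same expression values, differences between them are given as a description. Enpp2 was lower in cluster 1 than in responsive cells of the same library in 15 of 17 libraries with both. Its log2 difference was -2.60 ± 0.93 (SE) with condition as a covariate and -5.48 with the library as a block.

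The authors also deposited a trajectory, in which cells were placed in 7 states by expression, and values by state are likewise a description. In responsive E2 cells Enpp2 was found in 96 of 151 cells of state 5 (63.6%), 10 of 21 of state 6 (47.6%) and 19 of 42 of state 4 (45.2%). The pooled level was 559 CPM in state 5, 200.1 in state 4 and 60.0 in state 6. In responsive control cells it was found in 8 of 21 cells of state 4 (38.1%), 4 of 22 of state 1 (18.2%), 2 of 14 of state 7 (14.3%) and 18 of 143 of state 2 (12.6%). Their pooled level was 139 CPM in state 4, 26.5 in state 1 and 31.7 in state 2. The level in control state 4 rests on few cells. A single cell held at least 171 of its 383 reads, and only 1 library had at least 3 cells there. Among responsive cells, state 4 was the only state with at least 10 cells of each condition. Cells of 1 suspension are not replicates, so whether the conditions differ within state 4 was not tested.

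**Figure D4:**
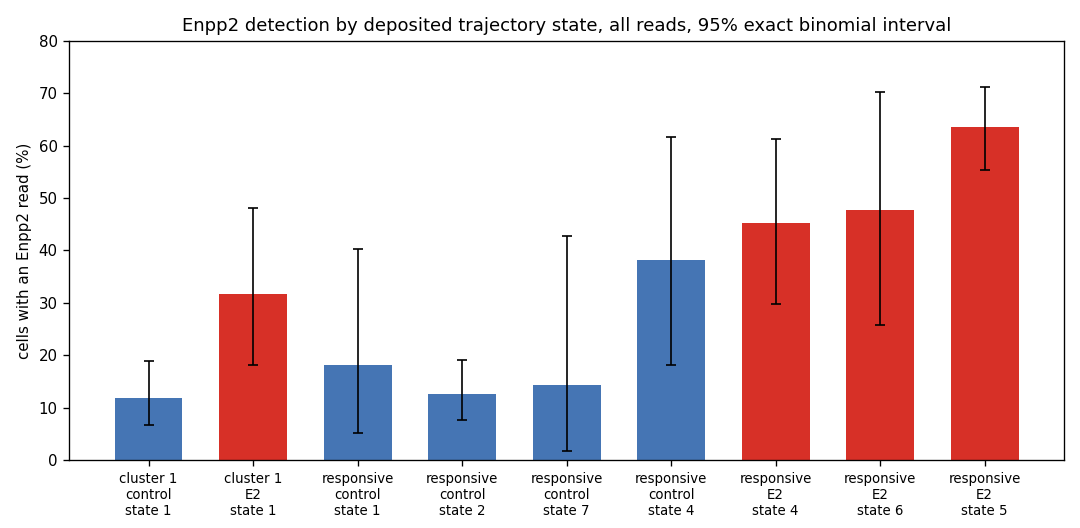
Share of cells with an Enpp2 read at full depth (percent, vertical axis) by cluster, condition and deposited trajectory state, for groups of at least 10 cells; control in blue, E2 in red, error bars are exact 95% binomial intervals that cover counting error only. The highest share is in state 5 of E2 cells (63.6%), and the control cells of state 4 (38.1%) lie nearer to the E2 cells of state 4 (45.2%) than to the control cells of state 2 (12.6%).

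The receptors were sparse. A read of at least 1 of the 3 measured receptors was found in 113 of 589 cells (19.2%), and in 11 cells more than 1 receptor had reads. The share was 53 of 203 responsive control cells (26.1%), 35 of 218 responsive E2 cells (16.1%), 18 of 126 cluster 1 control cells (14.3%) and 7 of 42 cluster 1 E2 cells (16.7%). These shares are at full depth, where control cells had more reads, and were not brought to 1 depth or tested. As a description, a read of any receptor was found in 20 of the 126 E2 responsive cells with Enpp2 (15.9%) and 15 of the 92 without (16.3%), and in 9 of the 34 control responsive cells with Enpp2 (26.5%) and 44 of the 169 without (26.0%). Single receptors differed from this in both directions. Lpar2 was found in 11 of the 126 E2 cells with Enpp2 (8.73%) and 3 of the 92 without (3.26%), but in 0 of the 34 control cells with Enpp2 and 23 of the 169 without (13.6%). Lpar6 was found in 3.97% of E2 cells with Enpp2 and 7.61% without, and in 23.5% and 12.4% of control cells.

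Lpar1 (ENSMUSG00000038668, chr4:58435255-58553898, minus strand) encodes the receptor that couples to Gi, Gq and G12/13. It had a read in 24 of 589 cells (4.07%). Its level in responsive sums was 0 CPM at the lowest, 3.20 at the median and 15.5 at the highest in control, and 0, 3.33 and 17.8 CPM with E2. The groups overlapped throughout. The share of responsive cells with a read at 20000 reads was 3.20% ± 2.87 (SD) in 10 control libraries and 3.03% ± 1.74 (SD) in 9 E2 libraries (exact permutation p = 0.881, adjusted 0.881). In cluster 1, 1 of 126 control cells and 2 of 42 E2 cells had a read.

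Lpar2 (ENSMUSG00000031861, chr8:69822429-69831102, plus strand) encodes a receptor that signals through the same G proteins. It had a read in 45 of 589 cells (7.64%), 23 of 203 responsive control cells and 14 of 218 responsive E2 cells among them. The level in responsive sums was 0.316 CPM at the lowest, 5.51 at the median and 28.7 at the highest in control, and 0, 1.33 and 23.1 CPM with E2. Every E2 library lay within or below the control range. edgeR gave Lpar2 a log2 fold change of -0.65 ± 0.92 (SE, adjusted p = 0.909), a difference smaller than its error.

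Lpar6 (ENSMUSG00000033446, chr14:73237895-73243294, plus strand) encodes a receptor of the purinergic branch that couples to G12/13. The gene lies inside Rb1, which is on the opposite strand and also in the table, and the strand used in counting is not given in the sources used here, so its reads are uncertain. It had a read in 56 of 589 cells (9.51%). Its level in responsive sums was 0.404 CPM at the lowest, 7.47 at the median and 22.8 at the highest in control, and 0, 4.18 and 8.63 CPM with E2, where 3 of 9 libraries were at 0. For a sum with 0 reads, the expected count can still be up to about 3 reads (one-sided 95% bound).

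The log2 fold change of Lpar6 was -1.38 ± 0.85 (SE, adjusted p = 0.658 by edgeR). At 20000 reads its share of responsive cells was 7.33% ± 4.29 (SD) in the 10 control and 3.05% ± 2.96 (SD) in the 9 E2 libraries. That difference had p = 0.0232 by the exact permutation test and 0.0929 after adjustment, so it did not pass. The host gene Rb1 had a log2 fold change of 0.50 ± 0.53 (SE, adjusted p = 0.879 by edgeR).

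The phosphatase gene Plpp1 (ENSMUSG00000021759, chr13:112800792-112867894, plus strand) encodes an ecto-enzyme that dephosphorylates LPA and other lipid phosphates. Its 3′ end overlaps Mtrex on the opposite strand, which is in the table too, so the same limit holds. It had a read in 181 of 589 cells (30.7%). In responsive sums its level was 11.7 CPM at the lowest, 38.5 at the median and 73.7 at the highest in control, and 2.44, 21.8 and 50.2 CPM with E2. The E2 libraries were lower at the median and the ranges overlapped.

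In edgeR, Plpp1 had a log2 fold change in responsive cells of -0.68 ± 0.44 (SE, adjusted p = 0.694). Its share of responsive cells at 20000 reads was 21.1% ± 8.43 (SD) in 10 control libraries and 12.5% ± 5.42 (SD) in 9 E2 libraries (exact permutation p = 0.0205, adjusted 0.0929), which did not pass after adjustment. Mtrex had a log2 fold change of -0.44 ± 0.44 (SE, adjusted p = 0.868 by edgeR).

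Plpp1 was the 1 member with enough reads to be tested within cluster 1. Its level there was 19.5 CPM at the lowest, 48.4 at the median and 108 at the highest in control and 4.71, 47.2 and 72.9 CPM with E2. The log2 fold change was -0.26 ± 0.54 (SE, adjusted p = 0.969 by edgeR), in a comparison in which 0.0839% of 8340 genes were called. As a description, Plpp1 was higher in cluster 1 than in responsive cells in 11 of 17 libraries, with a log2 difference of 0.72 ± 0.33 (SE). Lpar2, Lpar6 and Plpp3 were lower in cluster 1 in 12, 10 and 12 of 17 libraries, and Lpar1 in 13. These counts rest partly on cluster 1 sums without reads. Lpar1 was at 0 in 9 of 10 control and 5 of 7 E2 sums, Plpp3 in 6 and 6, and Lpar2 in 4 and 6. By mean CPM with E2, Lpar2 (7.25 against 5.70) and Plpp3 (8.52 against 7.03) were higher in cluster 1. These means came from libraries 17 and 19 alone. Lpar1 and Lpar6 were lower there by mean CPM, as all of them were in control.

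Plpp3 (ENSMUSG00000028517, chr4:105157347-105232764, plus strand) encodes the other measured phosphatase, a broad lipid phosphate ecto-enzyme. It had a read in 30 of 589 cells (5.09%). Its level in responsive sums was 0 CPM at the lowest, 3.58 at the median and 14.8 at the highest in control, and 0, 4.31 and 18.7 CPM with E2. The log2 fold change of Plpp3 was 0.33 ± 0.97 (SE, adjusted p = 0.964 by edgeR), and its share of responsive cells was 4.17% ± 4.15 (SD) in 10 control libraries and 3.85% ± 3.40 (SD) in 9 E2 libraries (exact permutation p = 0.854, adjusted 0.881). In cluster 1 a single E2 cell held all 36 reads, and in control 4 of 126 cells had a read.

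**Figure D5:**
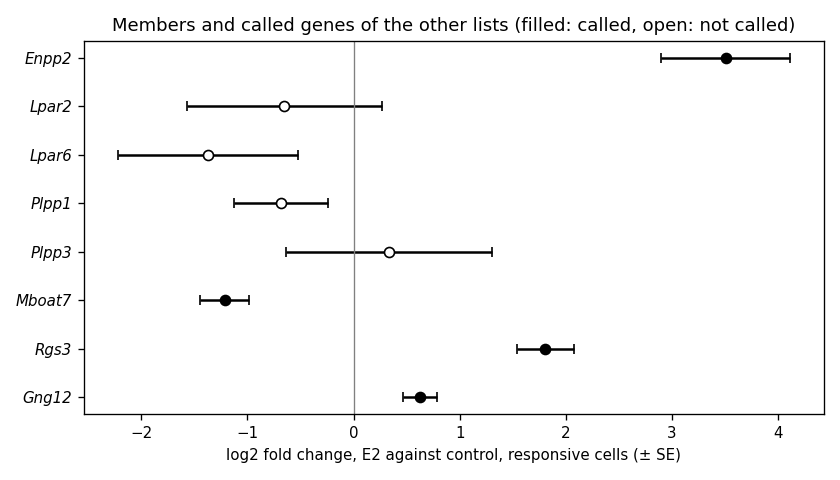
Log2 fold change of E2 against control in responsive cells (horizontal axis, ± SE) for the 5 members tested and the 3 called genes of the other lists; filled points passed both thresholds of the call. Enpp2 is at 3.50, Rgs3 at 1.80, Gng12 at 0.62 and Mboat7 at -1.21, and the error bars of Lpar2 and Plpp3 span 0.

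Other genes of the pathway or close to it were taken from lists by function. Enzymes that make, remodel or remove LPA or related lysophospholipids numbered 47, of which 39 were in the table and 33 were tested in responsive cells. Of these 1 fell and none rose, in edgeR as in DESeq2 and limma-voom, against 0.526% of all genes called lower by edgeR. Unadjusted p was below 0.05 for 3 of the 33. The share of all genes with such a p is not given here, so counts of this kind are not read as above background. The gene called was Mboat7, a lysophospholipid acyltransferase that adds arachidonate to lysophosphatidylinositol. Its level was 73.6 CPM at the lowest, 106 at the median and 162 at the highest in control, and 20.3, 45.8 and 77.4 CPM with E2. The ranges met only where E2 library 19, at 77.4 CPM, lay above control libraries 1 and 7, at 73.6 and 74.3 CPM. Mboat7 had a log2 fold change of -1.21 ± 0.23 (SE, adjusted p = 0.00299 by edgeR). The median log2 fold change of the list was 0.07.

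G proteins, their regulators and the effectors through which LPA receptors act numbered 48, with 38 in the table and 31 tested. Of these 2 rose and none fell, against 0.848% of all genes called higher by edgeR, and the list median was 0.11. Unadjusted p was below 0.05 for 6 of the 31, again without the share over all genes. DESeq2, which called 234 genes in all, called 3 of the list higher. From the same list limma-voom called 2, Rgs3 among them but not Gng12. Rgs3 encodes a GTPase-activating protein that turns off Gi and Gq subunits. Its level was 17.3 CPM at the lowest, 28.4 at the median and 53.3 at the highest in control, and 56.1, 101 and 196 CPM with E2. All 9 E2 libraries lay above all 10 control libraries, as they did for 0.273% of the genes tested. Rgs3 had a log2 fold change of 1.80 ± 0.27 (SE, adjusted p = 0.000148 by edgeR).

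The other was Gng12, a G protein gamma subunit, at 128 to 226 CPM in control and 178 to 388 CPM with E2. Its ranges overlapped, with 6 of 9 E2 libraries above every control library. The log2 fold change of Gng12 was 0.62 ± 0.16 (SE, adjusted p = 0.0380 by edgeR).

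Of the other ENPP family genes, 2 were tested in responsive cells and none was called or had an unadjusted p below 0.05, with a list median of -0.09. Of the sphingosine 1-phosphate pathway, a parallel lysolipid system with its own receptors, kinases and phosphatases, 12 were tested with the same outcome and a list median of 0.08. DESeq2 and limma-voom called none of either list. In cluster 1 edgeR called no gene of these 4 lists, and of the 22 enzyme genes, 2 ENPP genes, 26 coupling genes and 10 sphingosine 1-phosphate genes tested, 0, 0, 2 and 2 had an unadjusted p below 0.05. In the interaction it called none either, and 5 of 35, 0 of 3, 5 of 34 and 1 of 13 genes of the same lists had an unadjusted p below 0.05. DESeq2 called Cers6, a ceramide synthase, in both, where it called 52 and 98 genes in all. As above, the unadjusted counts are given without the share over all genes.

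Markers of OSE and of other ovarian cell types were read in the same fit. In responsive cells the 10 OSE markers had a median log2 fold change of -0.19. Krt19 was the 1 called, higher with E2 (log2 fold change 0.62, adjusted p = 0.00973 by edgeR). An unadjusted p below 0.05 was found for 8 of the 10, with values above 0 for Krt19, Lgr5 and Cdh2 and below 0 for Krt7, Krt8, Krt18, Upk1b and Msln (-0.98 to -0.30). As above, no share over all genes is set beside that count. DESeq2 also called Krt8 lower. Gja1 of the granulosa list was higher (0.69, adjusted p = 0.0322) and Thy1 of the stromal list was lower (-2.78, adjusted p = 2.38e-06). The summed stromal list ranged from 1983 to 2450 CPM in responsive control and from 1696 to 4783 CPM in responsive E2 libraries, the summed leukocyte list from 50.1 to 144 and from 30.7 to 123 CPM, and the muscle and pericyte list from 0.736 to 49.3 and from 4.02 to 30.1 CPM. The summed endothelial list had a median of 576 CPM in control and 585 CPM with E2. The defining granulosa genes Fshr, Amh and Foxl2, the theca gene Cyp17a1 and the endothelial gene Cdh5 were not analysed here. The part of any of these markers in the change of Enpp2 was not tested.

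The genes whose pattern was most like that of Enpp2 were found by Pearson's correlation of log2 CPM over the 36 sums, among 11397 other genes. They were Adgrg6, an adhesion G protein-coupled receptor (r = 0.81), Greb1, a known estrogen-induced cofactor of the estrogen receptor (r = 0.79), the gene model Gm1821 (r = 0.78), Idh1, the cytosolic isocitrate dehydrogenase (r = 0.77), and Creg1, a lysosomal glycoprotein (r = 0.77). The sums share libraries, conditions and clusters, so these are descriptions. Over the 19 responsive sums alone, r was 0.84, 0.81, 0.70, 0.77 and 0.81 in the same order.

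The 5 genes had these levels. Greb1 averaged 35.7 CPM in responsive E2 sums and 0.0353 CPM in responsive control sums, and Adgrg6 26.1 and 0.150 CPM. Creg1 averaged 1888 CPM with E2 and 725 CPM in control, Idh1 477 and 198 CPM, and Gm1821 361 and 251 CPM. They were chosen for likeness to Enpp2 over these sums, so no test between conditions is given for them.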

How the data were processed

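Primary mouse OSE cells were captured on a Fluidigm C1 chip and sequenced from the 3′ end of their transcripts. The authors quantified transcripts with kallisto 0.44.0 (version and build GRCm38 from the submitters' processing notes), summed them to genes with tximport, kept capture sites with 1 live cell and filtered cells and genes with scater. The deposited values are estimated counts per gene and cell without normalization, and 66.9% of those above 0 are exactly whole. Per the labels and the deposited metadata, which also hold a percent of mitochondrial reads, a pseudotime score and cluster labels, cells were assigned to libraries. Imputed log values were not used here. Positions are those of the GRCm38 gene annotation.

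Counts were summed per library and cluster (at least 3 cells), rounded, and tested with edgeR 4.0.16 in R 4.3.3 (TMM, filterByExpr, quasi-likelihood test, Benjamini-Hochberg over all genes tested). Standard errors were derived from the fold change and its F statistic. Shares of cells with a read were brought to 20000 reads by the expected hypergeometric share and compared between libraries by an exact permutation test, two-sided, in Python with scipy 1.17.1. With 10 against 7 libraries p could not fall below 0.000103. The tests were checked on simulated data.

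The alternatives tried were RLE size factors, DESeq2 1.42.0, voom in limma 3.58.1, no filter on genes, thinning each cell to 20000 reads, a minimum of 5 cells in a sum, labels for 3 clusters, the library as a block, each library left out in turn and, added after seeing the data, leaving out the cell with the most Enpp2 reads of each library. For shares they were all reads, at least 2 reads and at least 5 cells. A further gene of the receptor coupling list, called by DESeq2 and limma-voom, is not reported here. Named genes are the members, the called genes of the lists and the 5 genes most correlated with Enpp2. Members and lists were chosen with earlier results of these data known.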

Additional observations from a re-analysis of the deposited data

Results flagged for a closer look

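In 9 of 24 groups of libraries, 1 library's level of a member stood apart from the rest by Dixon's criterion. Its chance rate of about 1 in 20 groups holds for normally distributed values, and these levels were skewed with many at 0. In cluster 1, all other libraries were at 0 for Lpar1 in control and for Lpar2 and Plpp3 with E2. There any read met the criterion, so the 9 groups are not read against that rate. Of the 9 groups, 8 were sums of cluster 1 cells, most of which rest on few reads. For Enpp2 in cluster 1, control library 1 stood at 224 CPM, nearly all from 1 cell, and E2 library 20 at 9.51 CPM. For Lpar1, E2 library 11 stood at 24.3 CPM and control library 10 at 3.74 CPM in cluster 1, and E2 library 19 at 17.8 CPM in responsive cells. In cluster 1 sums of E2 libraries, Lpar2 stood at 50.8 CPM in library 17, Lpar6 at 8.70 CPM in library 16 and Plpp3 at 59.6 CPM in library 19. Plpp3 also stood at 15.9 CPM in cluster 1 cells of control library 9.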

How the results depend on the processing

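No paired analysis of E2 against control was possible because control and E2 libraries share no replicate number. The sums of the 2 clusters do pair by library, in 17 libraries with both. The main fits of the interaction and of the cluster difference did not use this pairing. The alternatives with the library as a block did. The rise of Enpp2 in responsive cells was called under the 7 other settings of normalization, test, filter, depth, cells per sum and cluster labels (log2 fold change 3.49 to 4.50) and without each library in turn (3.26 to 3.91), and its higher share of cells passed under all 3 other settings. The count of called genes in responsive cells was 141, 234 with DESeq2, and 107 to 141 with 1 library left out. In cluster 1 it was 7, 52 with DESeq2, 1 without a filter on genes, 4 at 20000 reads per cell, and 1 to 9 with 1 library left out. In the interaction it was 21, 98 with DESeq2, 13 with limma-voom, 13 at 20000 reads per cell, and 15 to 44 with 1 library left out. RLE size factors moved the median of all genes by 0.11 in cluster 1 and 0.16 in the interaction, where the share of calls that were higher was 9.52% with TMM and 31.8% with RLE. The interaction of Enpp2 ranged from -6.36 to -1.10 with 1 library left out, and was -2.70 in limma-voom and -2.75 when libraries were a block. Some differences that had not been called changed sign. In responsive cells that of Plpp3 was -0.0026 without E2 library 20, in a range up to 0.61. In the interaction Lpar6 was 1.35 in limma-voom, 1.38 when libraries were a block, 0.06 without E2 library 18, 0.0084 without control library 6 and 0.15 without control library 9, in a range from -2.08. Lpar2 was -4.38 without E2 library 17 and at most 3.13, and Plpp3 -4.96 without E2 library 19 and at most 4.79. In shares, the difference of Plpp3 was 0.050 percentage points in responsive cells and -0.73 in cluster 1 at all reads, and that of Plpp1 in cluster 1 was -1.28 with at least 2 reads. The cause was not tested. Lpar1, Lpar2, Lpar6 and Plpp3 had a read in 4.07 to 9.51% of cells, and what size of difference this depth could detect for them was not tested.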
